A study of Mus musculus with 6 samples.

Results

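Phospholipases A2 and the leukotriene pathway were examined through 9 genes: Pla2g4a, Pla2g7, Pla2g15, Alox5, Alox5ap, Lta4h, Ltc4s, Ltb4r1 and Cysltr1. They were taken by symbol from the 19309 genes of the count table, and all 9 were among the 13785 genes with a mean count above 5 that entered the test. The libraries were bulk RNA-seq of M2c-polarized macrophages from 3 sEH-/- and 3 wild-type mice. The sEH-/- mice lack the soluble epoxide hydrolase, encoded by Ephx2, and the comparison asks which transcripts depend on it after TGF-β1 repolarization. Per the study's methods, the mice were strain-matched littermates, most experiments used cells from females, and bone marrow was taken at 8 to 10 weeks of age. The study states that experiments after its comparison of the sexes used female mice. In both genotypes, bone marrow monocytes spent 7 days with GM-CSF and M-CSF (15 ng/mL each) and were then M1-polarized with 1 ng/mL IFN-γ and 10 ng/mL LPS, before TGF-β1 (10 ng/mL) was added for 48 hours. The M1 step lasted 24 hours according to the sample records and 12 hours according to the methods.

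Phospholipases A2 release fatty acids, arachidonic acid among them, from the sn-2 position of phospholipids. 5-Lipoxygenase, helped by its activating protein FLAP, turns arachidonic acid into leukotriene A4, from which leukotriene A4 hydrolase makes the neutrophil attractant leukotriene B4 and leukotriene C4 synthase makes the first cysteinyl leukotriene. Macrophages are a recognised source of both kinds, and each kind acts through its own G protein-coupled receptors. The soluble epoxide hydrolase acts on another branch of the same arachidonic acid metabolism, the epoxides made by cytochrome P450 enzymes.

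Library totals ran from 4400197 to 6096440 counts. Ephx2 counts were 4, 2 and 1 in sEH-/- against 26, 49 and 57 in wild-type cells, so the target gene matched every label (log2 fold change -4.05, SE 0.43, adjusted p = 0.0042). All 10 macrophage markers were present, and they summed to 2118 to 2636 CPM (counts scaled to a common library total) in sEH-/- macrophages and 1872 to 2367 in wild-type. The 10 fitted marker differences were all positive (median 0.21 on the log2 scale) and none passed the full criterion, while 1 of them had an adjusted p below 0.05. Duplicate removal compresses the counts of abundant genes such as Lyz2 (0.881 counts per exonic base) and Cd68 (0.886). Lyz2 had 1153 to 1173 counts in all 6 libraries, so its CPM varied inversely with the library total. The marker sums are therefore not a measure of macrophage content. The lymphocyte list did not exceed 0.807 CPM and the erythroid list 1.97 CPM in any library. Of the neutrophil list, only Mmp8 and S100a8 had a mean count above 5, and neither passed the full criterion. The list summed to 284 to 360 CPM in sEH-/- and 266 to 317 CPM in wild-type. By edgeR, Mmp8 gave a log2 fold change of 0.15 (adjusted p = 0.439) and S100a8 0.54 (adjusted p = 0.057). The stromal list was at 26.9, 19.6 and 11.1 CPM in sEH-/- against 9.45, 59.2 and 22.9 CPM in wild-type replicates 1 to 3. The part of other cells in the differences below was not tested. A gene is called here when edgeR's quasi-likelihood test gives a Benjamini-Hochberg adjusted p below 0.05 over all tested genes and the fold change exceeds 1.5, which is 0.585 on the log2 scale. By this criterion 360 genes, or 2.61% of those tested, differed between the genotypes, 208 higher (1.51%) and 152 lower (1.1%) in sEH-/-, and 4.01% passed on the adjusted p alone.

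Of the 9 genes, Cysltr1, the receptor for cysteinyl leukotrienes, was called, and it was higher in sEH-/- macrophages. The 3 phospholipases, the 5-lipoxygenase step, both leukotriene synthases and the leukotriene B4 receptor Ltb4r1 did not pass the test. The median log2 fold change of the 9 genes was 0.02 and their median absolute change 0.09, beside -0.00092 and 0.157 over all tested genes. For 1 of the 9 genes the genotypes did not overlap, against 26.3% of all tested genes (11.8% higher and 14.5% lower in sEH-/-). With 1 call among 9 genes, the count does not set the pathway apart from the background of 2.61%.

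**Figure D1:**
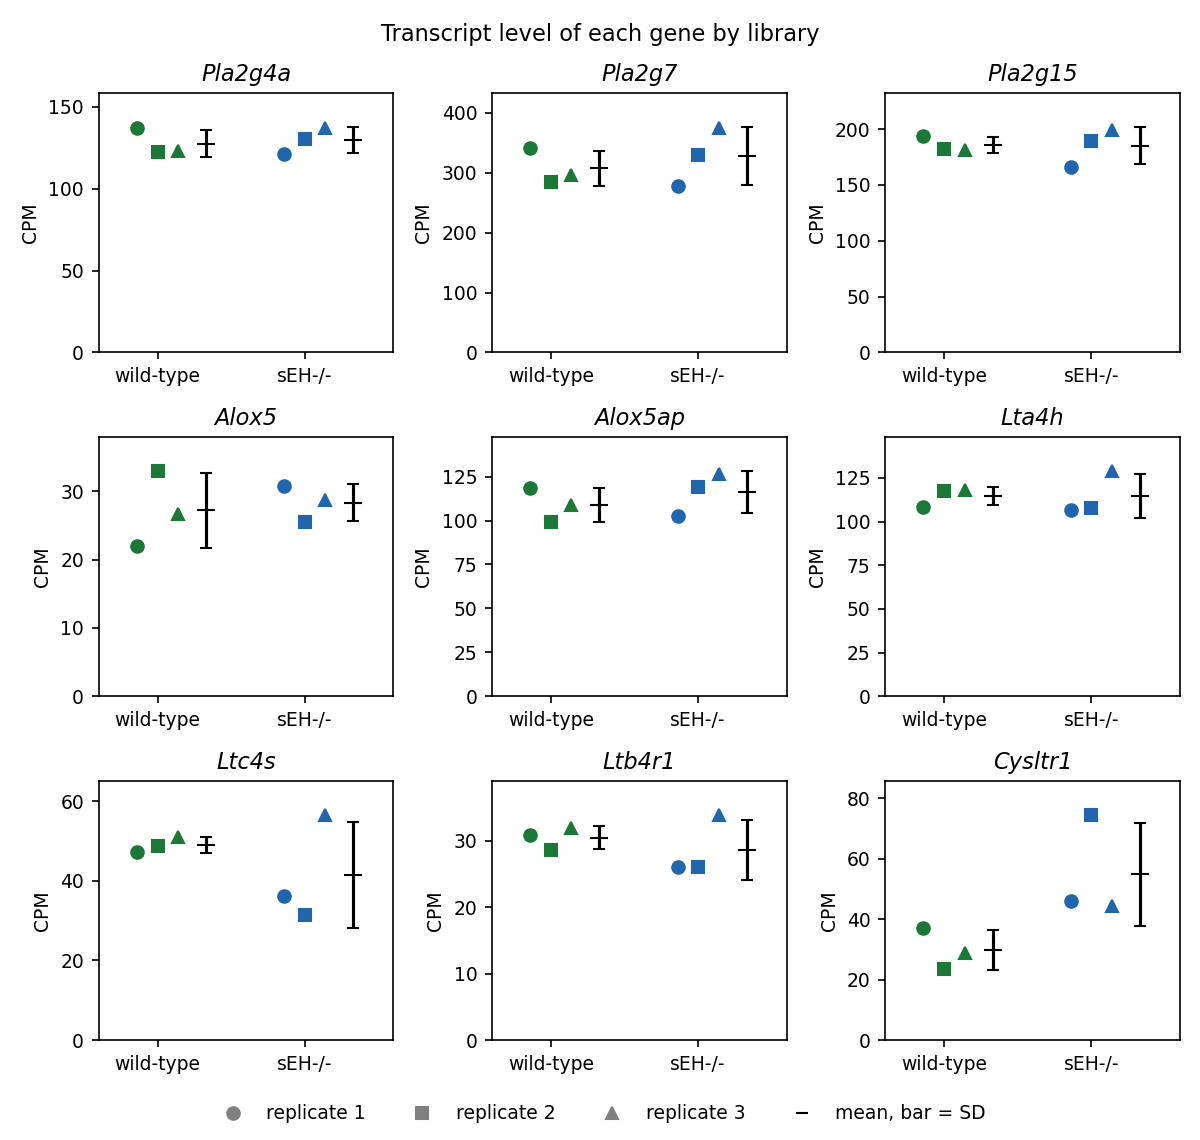
Transcript level in CPM (linear axis from 0) of each of the 9 genes, with 1 point for each library, wild-type in green and sEH-/- in blue; the horizontal mark is the mean of 3 libraries and the bar the SD. Cysltr1 is the gene whose lowest sEH-/- library (44.3 CPM) lies above its highest wild-type library (36.9 CPM), and the points of the other 8 genes overlap.

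Pla2g4a encodes cytosolic phospholipase A2α, the calcium-dependent enzyme that releases arachidonic acid for eicosanoid synthesis (ENSMUSG00000056220, mm10 chr1:149829618-149961290, minus strand). It was at 121, 130 and 137 CPM in sEH-/- macrophages against 137, 122 and 123 CPM in wild-type macrophages. Both genotypes covered the same range, and the means were 130 ± 7.91 and 127 ± 8.27 CPM (SD, n = 3 each, as for all means here). The log2 fold change was 0.02 (SE 0.08, 95% interval -0.14 to 0.19, adjusted p = 0.882 by edgeR), an interval that stays inside a 1.5-fold change.

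Pla2g7 encodes the secreted PAF acetylhydrolase, which inactivates platelet-activating factor (ENSMUSG00000023913, mm10 chr17:43568098-43612201, plus strand). It had the highest level of the 9 genes, at 277, 330 and 374 CPM in sEH-/- against 341, 285 and 295 CPM in wild-type libraries. The ranges overlapped, and the difference of 0.09 on the log2 scale lay within its error (SE 0.11, 95% interval -0.16 to 0.34, adjusted p = 0.686). The raw counts were closer together than the CPM, at 1613 to 1636 in sEH-/- and 1549 to 1757 in wild-type. Duplicate reads had been removed before counting, and no gene in the table exceeded 0.972 counts per exonic base and library. Pla2g7 stood at 0.564 counts per base. After a correction that allows at most 1 count per base, the log2 fold change was 0.09 (adjusted p = 0.702).

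Pla2g15 encodes the lysosomal phospholipase A2, an acidic enzyme that also transfers acyl groups to ceramide (ENSMUSG00000031903, mm10 chr8:106150399-106164715, plus strand). Its level was 166, 190 and 199 CPM in sEH-/- against 194, 183 and 181 CPM in wild-type libraries. The sEH-/- libraries lay on both sides of the wild-type values, and the fold change was -0.01 on the log2 scale (SE 0.08, 95% interval -0.19 to 0.17, adjusted p = 0.957).

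Alox5 encodes 5-lipoxygenase, which carries out the first steps of leukotriene synthesis (ENSMUSG00000025701, mm10 chr6:116410077-116461178, minus strand). It was at 30.8, 25.4 and 28.8 CPM in sEH-/- against 21.99, 32.9 and 26.7 CPM in wild-type libraries. The widest spread was within wild-type, where the highest and lowest libraries of all 6 were found. The log2 fold change was 0.05 (SE 0.16, 95% interval -0.30 to 0.40, adjusted p = 0.887).

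Alox5ap encodes FLAP, the membrane protein that presents arachidonic acid to 5-lipoxygenase (ENSMUSG00000060063, mm10 chr5:149264767-149288153, plus strand). Its level was 103, 119 and 126 CPM in sEH-/- against 119, 99.3 and 109 CPM in wild-type libraries. The groups overlapped, and the difference was 0.09 on the log2 scale (SE 0.09, 95% interval -0.12 to 0.30, adjusted p = 0.611). The ratio of Alox5ap to Alox5, per kilobase of exon, was 11.97 ± 2.05 in sEH-/- and 12.03 ± 3.46 in wild-type macrophages (2-sided exact permutation p = 1.0).

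Lta4h encodes leukotriene A4 hydrolase, the enzyme of leukotriene B4 synthesis (ENSMUSG00000015889, mm10 chr10:93453411-93484875, plus strand). It was at 107, 108 and 129 CPM in sEH-/- against 109, 118 and 118 CPM in wild-type libraries. The means of 114.5 ± 12.5 and 114.7 ± 5.31 CPM were nearly equal, and the log2 fold change was -0.0075 (SE 0.09, 95% interval -0.20 to 0.18, adjusted p = 0.97).

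Ltc4s encodes leukotriene C4 synthase, which joins leukotriene A4 to glutathione (ENSMUSG00000020377, mm10 chr11:50236461-50238616, minus strand). Its level was 36.3, 31.5 and 56.6 CPM in sEH-/- against 47.3, 48.7 and 51.1 CPM in wild-type libraries. Replicates 1 and 2 of sEH-/- were below every wild-type library and replicate 3 was above them all, so the coefficient of variation was 32.2% in sEH-/- and 3.94% in wild-type. The log2 fold change of -0.26 did not pass the test (SE 0.18, 95% interval -0.65 to 0.14, adjusted p = 0.428), and the interval does not exclude a decrease of 1.5-fold. Which sEH-/- library was left out set the size of the difference: it was -0.17 without replicate 1 (adjusted p = 0.605), -0.08 without replicate 2 (adjusted p = 0.874) and -0.52 without replicate 3 (adjusted p = 0.0282, short of the fold threshold). The ratio of Ltc4s to Lta4h per kilobase was 2.04, 1.75 and 2.64 in sEH-/- against 2.62, 2.49 and 2.61 in wild-type libraries. Its 2-sided exact permutation p was 0.4. The exon lengths behind it join all annotated transcripts, 1014 bases for Ltc4s and 6102 for Lta4h. In CPM Lta4h was the higher gene (wild-type mean 114.7 against 49.0). The ratio compares the genotypes and does not tell which transcript is more numerous.

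Replicates 1 and 2 of sEH-/- were also low in the summed dendritic cell markers, at 27.7, 29.1 and 58.2 CPM in replicates 1 to 3, with 42.2 to 59.5 CPM in wild-type. Most of each sum was Clec9a (16.4, 23.4 and 42.7 CPM in sEH-/-), and besides it only Zbtb46 and Ccr7 had a mean count above 5. Zbtb46 was at 5.30, 3.23 and 9.28 CPM in sEH-/- against 9.23, 14.6 and 10.6 in wild-type. Ccr7 did not follow, at 4.79, 2.22 and 5.33 CPM against 2.42, 6.49 and 3.94. The mast cell and basophil markers, mostly Gata2, summed to 8.38, 7.06 and 10.7 CPM in sEH-/- against 3.96 to 10.4 CPM in wild-type. In bulk RNA a smaller number of cells of a type and less RNA per cell cannot be told apart, and the part of other cells in the Ltc4s values was not tested. On the other strand, 26.4% of the Ltc4s exonic bases overlap Gm26542, and the counting was strand-aware.

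Ltb4r1 encodes BLT1, the high-affinity leukotriene B4 receptor (ENSMUSG00000046908, mm10 chr14:55765962-55768494, plus strand), and lies on the chromosome that carries Ephx2. Cysltr2, Ltb4r2 and Abcc4, described below, lie on that chromosome too. Ltb4r1 was at 26.0, 26.0 and 33.9 CPM in sEH-/- against 30.8, 28.6 and 31.9 CPM in wild-type libraries. As for Ltc4s, sEH-/- replicates 1 and 2 were the lowest and replicate 3 the highest of the 6 libraries. The log2 fold change was -0.09 (SE 0.13, 95% interval -0.39 to 0.20, adjusted p = 0.729).

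Cysltr1 encodes CysLT1, the receptor for leukotriene D4 that montelukast blocks (ENSMUSG00000052821, mm10 chrX:106574346-106603679, minus strand). The raw counts were 268, 369 and 191 for sEH-/- replicates 1 to 3 and 168, 145 and 161 for their wild-type counterparts. Relative to the library totals this was 45.9, 74.5 and 44.3 CPM in sEH-/- against 36.9, 23.5 and 28.9 CPM in wild-type. All sEH-/- libraries were above all wild-type libraries, with replicate 2 far above the other two. The mean was 54.9 ± 17.0 CPM in sEH-/- against 29.8 ± 6.75 CPM in wild-type macrophages, a 1.86-fold increase (95% interval 1.34 to 2.59) (log2 fold change 0.90, SE 0.22, adjusted p = 0.0483 by edgeR). An exact permutation test of 3 against 3 libraries gave p = 0.1, the smallest that this design allows. As to the sex of the cells, Xist was at 466 to 737 CPM in sEH-/- and 467 to 743 CPM in wild-type. By Xist all 6 libraries read as female. The Y-linked genes Ddx3y, Kdm5d, Eif2s3y and Uty had no row, so their counts are not known.

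The call on Cysltr1 was close to the threshold and rested on single libraries. Without sEH-/- replicate 2 the log2 fold change was 0.63 (adjusted p = 0.116), without wild-type replicate 2 it was 0.74 (adjusted p = 0.212) and without wild-type replicate 3 it was 0.88 (adjusted p = 0.181). Without those libraries only 96, 25 and 6 genes of the whole table were called (0.696%, 0.183% and 0.0437%). DESeq2, which called 3.42% of all tested genes, gave Cysltr1 an adjusted p of 0.00125, whereas limma-voom, which called 2.23%, gave 0.0536.

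Eosinophils, which also carry CysLT1, were represented by markers that summed to 8.55, 21.4 and 21.3 CPM in sEH-/- replicates 1 to 3 and to 12.1, 18.8 and 13.8 CPM in wild-type libraries. The sums overlapped between genotypes, and of this list only Siglecf and Ccr3 had a mean count above 5. Siglecf, most of each sum, had 38, 85 and 81 counts in sEH-/- against 52, 104 and 63 in wild-type (log2 fold change 0.06). Ccr3 had 6, 17 and 8 counts in sEH-/- against 0, 4 and 5 in wild-type, and both genes were uncalled. Below that mean count, Ear1 had 5, 4 and 2 counts in sEH-/- against 3, 5 and 3 in wild-type. Prg2 had 1, 0 and 1 counts in sEH-/- against 0, 3 and 6 in wild-type. Neither this list nor the small positive shift of the macrophage markers was tested for its part in the Cysltr1 values.

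**Figure D2:**
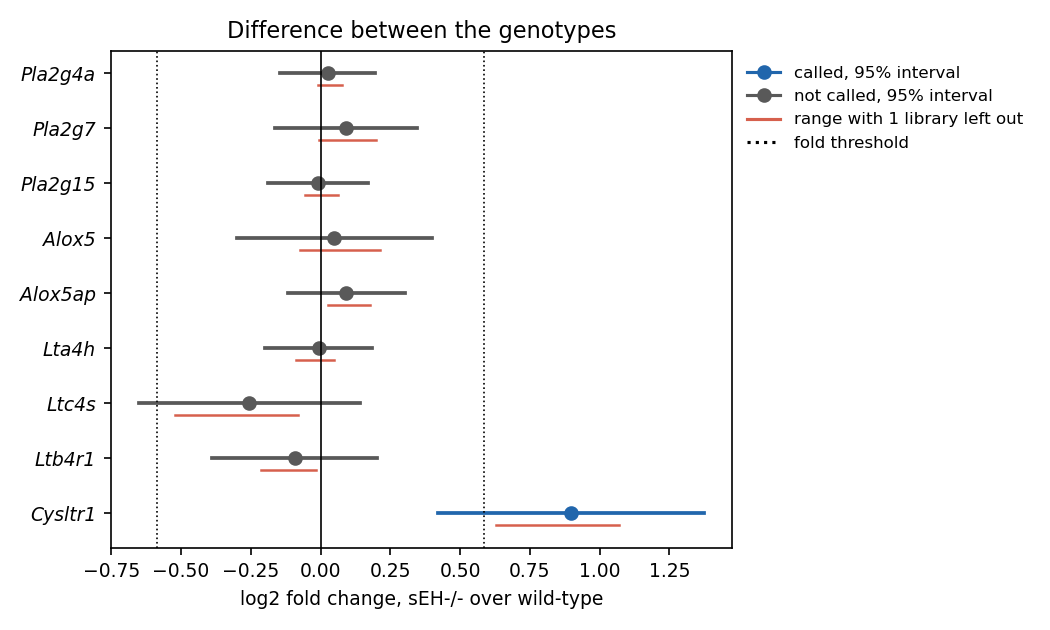
Log2 fold change of the 9 genes, sEH-/- over wild-type: points are the edgeR estimates, thick lines their 95% intervals, thin red lines the range of estimates with 1 of the 6 libraries left out, and dotted lines the 1.5-fold threshold. The interval of Cysltr1 runs from 0.42 to 1.37 and its left-out range from 0.63 to 1.07, and the intervals of the other 8 genes include 0.

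The ratio of the 2 receptors was also compared within each library, which removes the scaling by library total. The ratio of Cysltr1 to Ltb4r1 per kilobase of exon was 0.478, 0.775 and 0.355 in sEH-/- against 0.325, 0.223 and 0.245 in wild-type libraries. All 3 sEH-/- values lay above the wild-type values, with a log2 difference of 0.96 and a 2-sided exact permutation p of 0.1, again the smallest possible. Ltb4r1 itself differed little (log2 fold change -0.09), so the ratio largely restates the Cysltr1 difference and is not separate support for it.

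Compared per kilobase of exon, the levels of the 9 genes spanned from 105.7 CPM per kilobase for Pla2g7 to 5.79 for Cysltr1 in wild-type macrophages. The lengths join the exons of all annotated transcripts of a gene, so the order and the percentiles depend on them. The order in wild-type was Pla2g7, Alox5ap (76.7), Pla2g15 (61.7), Ltc4s (48.3), Ltb4r1 (21.8), Pla2g4a (19.9), Lta4h (18.8), Alox5 (6.63) and Cysltr1 (5.79). Ltb4r1 and Pla2g4a, Pla2g4a and Lta4h, and Alox5 and Cysltr1 overlapped in their library ranges and were not separable in this order. Among all tested genes the wild-type level of Pla2g7 was at percentile 99.6, that of Alox5ap at 98.5 and that of Alox5 at 37.8. Transcripts of FLAP and leukotriene C4 synthase were above those of 5-lipoxygenase in every library.

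In sEH-/- macrophages the order was the same from Pla2g7 (112.6 CPM per kilobase) to Lta4h (18.8), except that the library ranges of Pla2g15 (61.4) and Ltc4s (40.9) overlapped. Cysltr1 (10.7) and Alox5 (6.90) then changed places, and their ranges of 8.61 to 14.5 and 6.19 to 7.5 did not overlap. Cysltr1 moved from percentile 35.0 of all tested genes in wild-type to 49.8 in sEH-/-. The highest levels are the ones the ceiling on counts compresses, and with corrected counts Pla2g7 was at 165 CPM per kilobase in sEH-/- against 156 in wild-type.

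**Figure D3:**
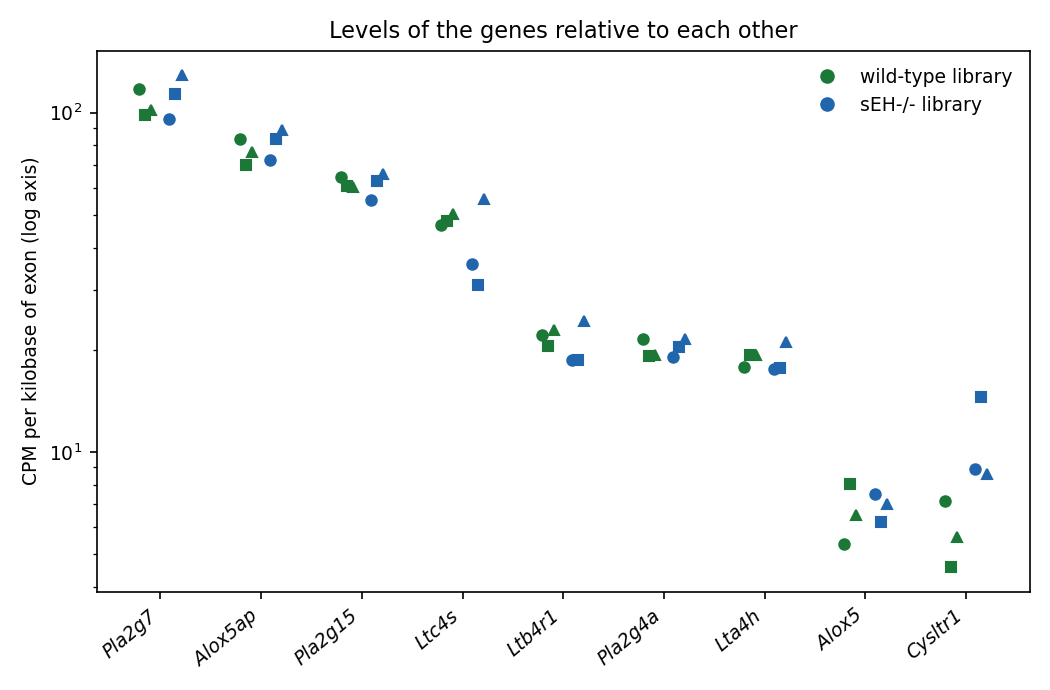
Level of the 9 genes in CPM per kilobase of exon (log axis), ordered by the wild-type mean, with 1 point for each library (circle, square and triangle for replicates 1, 2 and 3; wild-type in green, sEH-/- in blue). Cysltr1, lowest in wild-type with a mean of 5.79, is above Alox5 in sEH-/- with a mean of 10.7.

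The genes whose values over the 6 libraries were most like those of Cysltr1 were sought among 10277 genes with a mean count of at least 50. Likeness was the root mean square difference in log2 CPM relative to the wild-type mean. Casd1, a sialic acid O-acetyltransferase, was nearest (difference 0.098), followed by Ms4a6b, a membrane protein of the MS4A family (0.103), and Gda, guanine deaminase (0.103). In all 3 genes sEH-/- replicate 2 was the highest library (1.12 to 1.2 above the wild-type mean on the log2 scale, beside 1.33 for Cysltr1) and wild-type replicate 2 the lowest. The 3 genes were called higher in sEH-/- with log2 fold changes of 0.87, 0.79 and 0.79, which follows from choosing them by their likeness to Cysltr1.

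**Figure D4:**
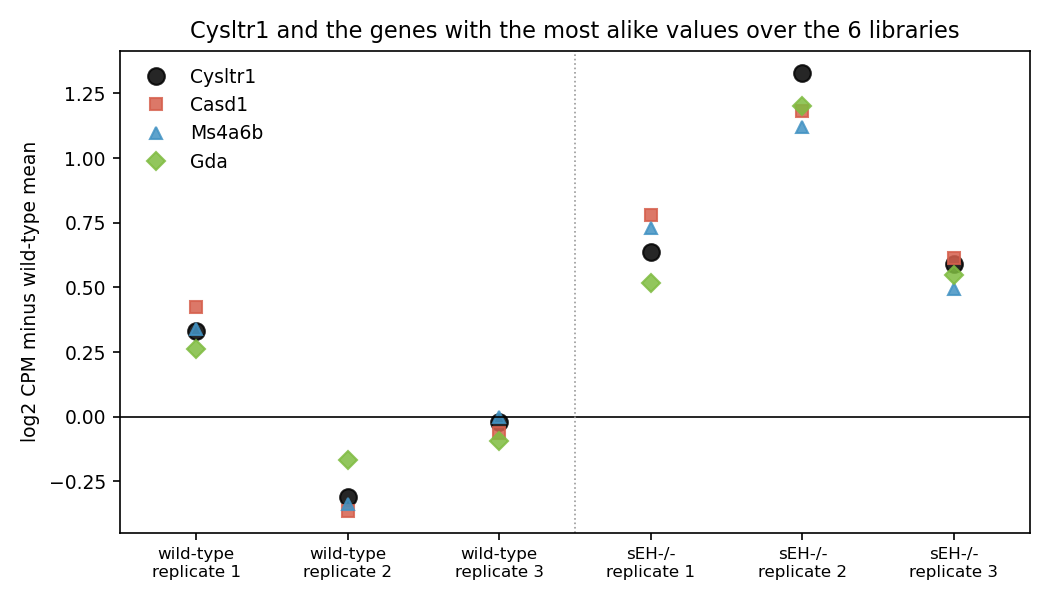
Log2 CPM minus the wild-type mean for Cysltr1 (black) and the 3 genes most like it, in each of the 6 libraries. In all 4 genes sEH-/- replicate 2 is the highest library, at 1.33 for Cysltr1, and wild-type replicate 2 the lowest, at -0.31.

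To place the 9 genes, 64 further genes of phospholipid remodelling and leukotriene biology were grouped in 6 lists. Of these, 49 had a row in the table, Pla2g16 under the symbol Plaat3 and Dpep2 on a pair of gene identifiers, and 40 rows entered the test. The other 15 genes were not analysed here. Among the 40 tested, 1 was called higher and 1 lower, beside 1.51% and 1.1% of all tested genes. Fitted differences were positive for 28 and negative for 12, with a median of 0.08 on the log2 scale, and the genotypes did not overlap for 7 higher and 5 lower genes, beside 11.8% and 14.5% of all tested genes.

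Lpcat2, the lysophospholipid acyltransferase that also makes platelet-activating factor, was called higher (mm10 chr8:92855339-92919279). It was at 126, 169 and 150 CPM in sEH-/- and at 114, 85.2 and 97.7 CPM in wild-type libraries. Every sEH-/- library exceeded every wild-type library, and the means were 148 ± 21.4 and 98.9 ± 14.4 CPM. The log2 fold change of 0.587 (SE 0.12, adjusted p = 0.0335 by edgeR) was just over the threshold of 0.585, and under 7 of the 15 alternative settings Lpcat2 missed the criterion. These were the fits that left out sEH-/- replicate 2 (0.50) or the wild-type replicates 2 (0.49) and 3 (0.58) in turn, library size without TMM factors (0.57), no filter on low counts (0.58), the replicate block (0.59) and the covariate of log library total (0.52).

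The other 8 tested genes for arachidonate activation and reacylation were not called. Acsl1 and Acsl4, which attach coenzyme A to long-chain fatty acids, Acsl4 with a preference for arachidonic acid, gave log2 fold changes of 0.22 (adjusted p = 0.228) and 0.11 (adjusted p = 0.394). The genes that degrade or recognise platelet-activating factor did not follow Lpcat2 past the test. Besides Pla2g7, the intracellular PAF acetylhydrolase subunits Pafah1b1 and Pafah1b2 gave 0.03 and -0.01, and the PAF receptor Ptafr gave 0.04 (adjusted p = 0.803).

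Of 12 tested genes among the other phospholipases A2, edgeR called 0, beside 2.61% of all tested genes. An unadjusted p below 0.05 was found for 3 of the 12, beside 23.4% of all tested genes, and the genotypes did not overlap for 5, beside 26.3%. DESeq2 and limma-voom also called 0 genes of this list. Chosen after their values were seen, these were Plaat3 (0.31) and the receptor Pla2r1 (0.78), higher in sEH-/-, and Pla2g12a (-0.45), Pla2g6 (-0.36) and Pnpla8 (-0.16), lower. Pla2g12a, a secreted enzyme, had the smallest adjusted p of them, 0.0519, at 41.6, 37.1 and 47.3 CPM in sEH-/- against 51.0, 58.9 and 61.5 CPM in wild-type. Pla2g6 encodes the calcium-independent phospholipase A2β.

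Aloxe3, an epidermal lipoxygenase that works as a hydroperoxide isomerase, was the lipoxygenase besides Alox5 that had enough counts for the test (mm10 chr11:69125896-69149115). It had 8, 2 and 3 counts in sEH-/- against 12, 27 and 23 counts in wild-type libraries. The groups did not overlap, and it was called lower (log2 fold change -2.11, SE 0.44, adjusted p = 0.0334 by edgeR), at 0.823 ± 0.495 against 3.71 ± 0.941 CPM. It missed the threshold without sEH-/- replicate 2 (-1.77, adjusted p = 0.107) or 3 (-1.999, 0.0503), without wild-type replicate 2 (-1.97, 0.158) or 3 (-2.04, 0.143), with the replicate block and with log library total as a covariate.

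Of the 8 tested genes for leukotriene conversion and export, edgeR, DESeq2 and limma-voom called 0. In edgeR 3 had an unadjusted p below 0.05, beside 23.4% of all tested genes. The difference was positive for 7 of the 8, beside 49.8% of all tested genes, and the list median was 0.24 beside -0.00092. Abcc1, the exporter of leukotriene C4, gave 0.18 (SE 0.10, adjusted p = 0.311), and Ptgr1, which oxidises leukotriene B4, gave -0.02 (adjusted p = 0.901). The genotypes did not overlap for 3 genes, all higher in sEH-/- (11.8% of all tested genes), which are named after their values were seen. Cyp4f18, which hydroxylates leukotriene B4, was at 31.5, 44.2 and 39.0 CPM in sEH-/- against 25.3, 28.6 and 23.7 CPM in wild-type (log2 fold change 0.56, SE 0.14, adjusted p = 0.0573), and it was called when sEH-/- replicate 1 was left out. Dpep2 (ENSMUSG00000053687), a dipeptidase that converts leukotriene D4 to E4, was at 8.21, 9.08 and 8.35 CPM against 5.496, 4.71 and 4.12 CPM (0.84, SE 0.23, adjusted p = 0.0629). The other Dpep2 identifier spans the same stretch on the same strand, had 0 to 3 counts in each library and was not tested. Reads over several genes were left out of the counts. The exporter Abcc4 gave 0.38 (SE 0.12, adjusted p = 0.0836).

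The other leukotriene receptors with enough counts were Cysltr2 and Ltb4r2, and neither was called. Cysltr2, the other receptor for cysteinyl leukotrienes, gave 0.15 (SE 0.16, 95% interval -0.21 to 0.50, adjusted p = 0.629). Whether its difference departs from that of Cysltr1 was not tested. Of the 7 regulators of cytosolic phospholipase A2 and 5-lipoxygenase, edgeR, DESeq2 and limma-voom called 0, and in edgeR 1 had an unadjusted p below 0.05, beside the same 23.4%. Cotl1, a coactosin-like protein that binds 5-lipoxygenase, gave 0.08 (adjusted p = 0.713).

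**Figure D5:**
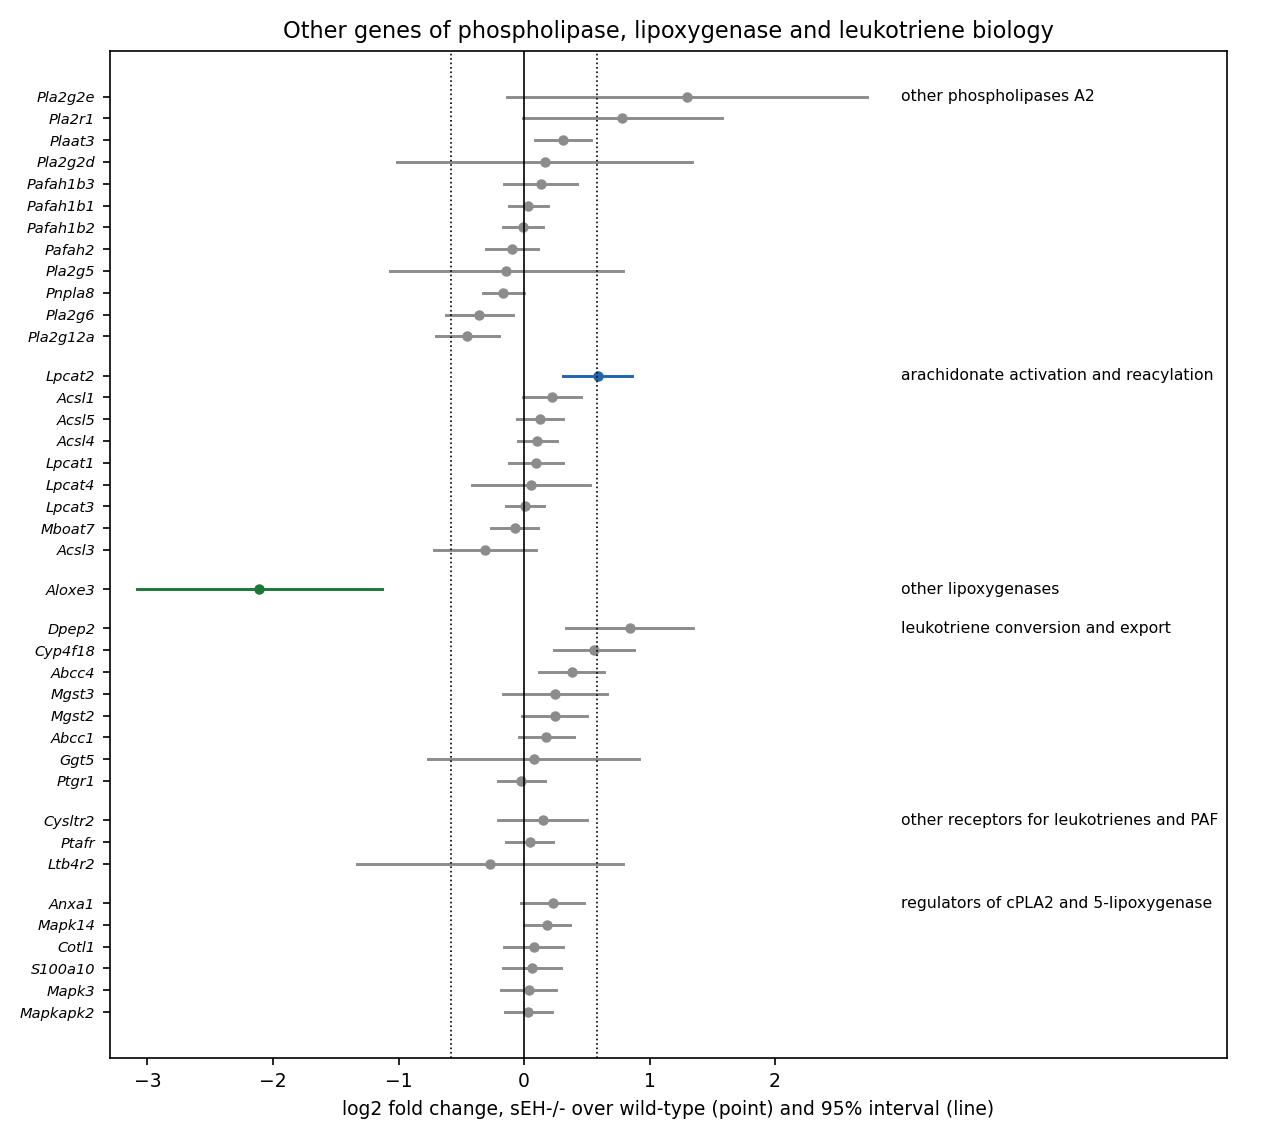
Log2 fold change, sEH-/- over wild-type, of tested genes of the 6 further lists, with 95% intervals; dotted lines mark the 1.5-fold threshold, blue marks the called gene that was higher and green the one that was lower. Lpcat2 at 0.587 lies on the threshold, Aloxe3 at -2.11 is well below it, and the genes for leukotriene conversion and export lie mostly to the right of 0.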

How the data were processed

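The deposited table holds raw counts per gene, 1 column for each of the 6 libraries. Per the submitters' processing notes, the authors used Trimmomatic 0.39, STAR 2.7.7a on mm10, Picard 2.21.7 and featureCounts 1.6.5; the study's methods name other versions of STAR, Picard and featureCounts. Duplicate, multi-mapping, ribosomal and mitochondrial reads were removed, and strand-aware exon counts leave out reads over several genes. Removing duplicates compresses the counts of abundant genes.

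Genes with a mean count above 5 (13785) were fitted with edgeR 4.0.16 (TMM, quasi-likelihood test, genotype as the only term, 2-sided, Benjamini-Hochberg adjustment over all tested genes), an SE being the fold change divided by the root of the F statistic. CPM use TMM-scaled totals of tested genes. Exon lengths (the joined exons of all annotated transcripts) and overlaps are from GENCODE M21 (mm10), where 19286 of 19309 identifiers were found. Gene coordinates are those given with the deposited counts. Alternatives were DESeq2 1.42.0, limma-voom 3.58.1, other scaling and filters, a replicate block, a ceiling correction, a depth covariate and each library left out. The fits were tested on simulated counts.

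Named by rule were the 9 genes, Ephx2, every called gene of the further lists with up to 2 uncalled genes of highest mean count per list, and the 3 genes most like a called one. Further uncalled list genes and single marker genes were named after their values were seen. 1 uncalled gene of the further lists is counted but not reported here. Members and lists were chosen with earlier results of these data known.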

Additional observations from a re-analysis of the deposited data

How the results depend on the processing

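With 3 mice for each genotype, the median SE of a log2 fold change was 0.117. For the lower genes Alox5 and Ltb4r1 it was 0.16 and 0.13, so differences well below 1.5-fold could not be told from 0. The parts of depth and of the spread between mice in this limit were not tested. Differences below 1.5-fold are also not called by the criterion itself. Cysltr1 kept its direction under all 15 alternatives and its call under 9. It was not called by limma-voom (0.89, adjusted p = 0.0536), with the replicate block (0.87, 0.064) or with log library total as a covariate (0.84, 0.0844), where 0 of the 9 genes were called. With 1 library left out, 0 to 1 of the 9 genes, 0 to 3 genes of the further lists (Cyp4f18 joined Lpcat2 and Aloxe3 without sEH-/- replicate 1) and 6 to 625 of all genes were called, and Cysltr1 lay between 0.63 and 1.07. Libraries whose removal moved the count over 1.5 times were sEH-/- replicate 2 (96) and 3 (570) and wild-type replicates 1 (625), 2 (25) and 3 (6). Over all genes 553 were called without a fold threshold (4.01%), 234 with the replicate block and 171 with the depth covariate. For the further lists 1 gene was called without TMM factors or without a filter on low counts, and 0 with the block or the covariate. Same-numbered libraries did not deviate together (correlations of -0.0859, -0.268 and -0.0383), so the numbers were not taken as pairs.

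Alox5ap, Ltc4s and Ltb4r1 kept their direction under every alternative. The sign turned, near 0, for Pla2g4a with the covariate (-0.013) and on leaving out sEH-/- replicate 3 (-0.0080) or wild-type replicate 2 (-0.0047) or 3 (-0.00044; highest value 0.077), and for Pla2g7 on leaving out sEH-/- replicate 3 (-0.0060; highest value 0.20). It turned for Pla2g15 on leaving out the first replicate of sEH-/- (0.063; lowest value -0.054) or of wild-type (0.021), and for Alox5 with the same libraries left out (-0.021 and -0.075; highest value 0.21). For Lta4h it turned with DESeq2 (0.0013) and with sEH-/- replicate 1 (0.042) or 2 (0.050) or wild-type replicate 2 (0.010) or 3 (0.012) left out (lowest value -0.088). None of these reached the threshold, and the cause was not tested.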
